A study of Mus musculus with 60 samples.

Results

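Dopamine receptors and the proteins through which they signal were followed across the dorsal and ventral dentate gyrus (DG) of mice raised in standard housing (SH) or an enriched environment (EE). The 8 genes are *Drd1*, *Drd2*, *Drd3*, *Drd4*, *Drd5*, *Ppp1r1b*, *Gnal* and *Adora2a*, out of 46480 genes in the deposited tables. The list was chosen by the EE against SH values of *Drd1* in these same samples, which rise with enrichment, so those values are given as a description without a test. The 4 groups were dorsal DG and ventral DG, each from SH and EE mice, and all came from male C57BL6J mice of 80 days, for which the labels give no genetic change or drug. Mice were weaned on day 22. SH mice lived 3 to a cage, and EE mice lived 12 to a larger cage with running wheels and other objects that were changed each week. Each library was made from tissue punches pooled over several mice, so a replicate is a pool and not an animal, and the dorsal and ventral libraries with the same housing and replicate number came from the same mice. A punch holds all cell types of the DG and whatever borders it. In such bulk RNA, fewer cells of a type and less RNA per cell cannot be told apart.

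Of the 20 RNA-seq libraries, 18 entered the comparisons: 4 SH and 5 EE pools, each with a dorsal and a ventral library. SH replicate 3 was left out in both regions. It was the only SH or EE pool with more than 1 CPM (fragments of a gene scaled to the total of its library) of *Xist*, an RNA made in females, at 34.4 CPM in the dorsal and 11.9 in the ventral library. Between 22919364 and 28301861 fragments were counted on genes per library (median 25816352). Markers fixed for granule cells, the main neurons of the DG (*Prox1*, *C1ql2*, *Dsp*, *Tdo2*, *Calb1* and *Plk5*), were present in each library. Their summed level was 863 to 1047 CPM in dorsal and 429 to 638 CPM in ventral DG. Markers of other cells also differed by region. Choroid plexus markers summed to 24.0 to 209 CPM in dorsal and 387 to 1416 CPM in ventral DG, markers of thalamus and habenula to 87.4 to 133 CPM and 26.9 to 39.4 CPM, and hilar mossy cell markers to 61.8 to 80.4 CPM and 181 to 206 CPM. Most of the dorsal sum for thalamus and habenula was *Prkcd* (81.8 CPM in dorsal and 16.2 in ventral SH). *Tac2* of that list was lower in dorsal SH (0.695 against 1.18 CPM).

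Dopamine acts on G protein-coupled receptors of 2 families. The D1-like receptors, encoded by *Drd1* and *Drd5*, raise cyclic AMP, whereas the D2-like receptors, encoded by *Drd2*, *Drd3* and *Drd4*, lower it. *Gnal* encodes the stimulatory G protein alpha subunit Golf, which couples D1 and adenosine A2a receptors to adenylyl cyclase in the striatum. *Adora2a* encodes that A2a receptor. *Ppp1r1b* encodes DARPP-32, which becomes an inhibitor of protein phosphatase 1 once protein kinase A has phosphorylated it. In the DG, D1-like receptors are known from granule cells, and *Drd2* is used as a marker of hilar mossy cells.

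In mm10 with Gencode annotation, *Drd1* lies on the minus strand of chromosome 13 (chr13:54051183-54055705) with at most 2 exons in a transcript. *Drd5* is a single-exon gene on the plus strand (chr5:38319367-38322518), and *Drd2* has 8 exons on the plus strand (chr9:49340627-49408177). *Drd5* overlaps the antisense gene Gm26560. Counting without strand kept only 53.3% of the *Drd5* fragments, so the stranded counts are used throughout. *Ppp1r1b* likewise overlaps 1700003D09Rik on the other strand, and unstranded counting kept 71.9% of its fragments. *Gnal* shares its span with *Chmp1b* on the same strand and *Mppe1* on the other, and unstranded counting kept 93.3%. For *Drd1*, *Drd2* and *Adora2a* it gave 100%, 100.2% and 100.3% of the stranded fragments.

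The bases upstream of *Drd1* and *Drd5* are shown because these receptors were higher in dorsal DG, and those of *Drd2* because it was not called between the regions. The sequences are from RefSeq (GRCm38.p6), written 5′ to 3′ on the strand of the gene. They stop before the first start site of either annotation, and capitals mark the GC box GGGCGG on either strand. They cover chr13:54055706-54055908 for *Drd1*, chr5:38319259-38319366 for *Drd5* and chr9:49340153-49340402 for *Drd2*.
Drd1: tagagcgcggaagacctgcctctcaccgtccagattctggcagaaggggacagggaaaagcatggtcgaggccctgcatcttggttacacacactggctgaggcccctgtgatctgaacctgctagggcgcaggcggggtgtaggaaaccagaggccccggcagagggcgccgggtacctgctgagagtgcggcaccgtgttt
Drd5: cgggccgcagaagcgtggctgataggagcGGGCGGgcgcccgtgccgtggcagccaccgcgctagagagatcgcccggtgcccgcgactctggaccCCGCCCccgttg
Drd2: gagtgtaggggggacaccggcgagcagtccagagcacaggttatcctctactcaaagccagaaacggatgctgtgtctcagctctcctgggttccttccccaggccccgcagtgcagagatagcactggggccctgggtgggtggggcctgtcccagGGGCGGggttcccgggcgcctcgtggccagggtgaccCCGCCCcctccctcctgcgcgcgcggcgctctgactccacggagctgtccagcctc
*Drd5* and *Drd2* each had 2 GC boxes and *Drd1* had none in these windows, of which 75.9%, 68.8% and 62.6% of bases were G or C. A GC box was found in 11.4% of all 32851 promoters over the 108 bases of the *Drd5* window, in 32.7% over the 250 bases of the *Drd2* window and in 25.2% over the 203 bases of the *Drd1* window. None of the 3 windows held the cyclic AMP response element TGACGTCA, its part TGACG or the AP-1 motif TGANTCA on either strand. Over the *Drd1* window, 0.855%, 13% and 5.66% of all promoters held these. Such matches describe letters only and not binding. *Drd1* had 2 promoter entries, of which only the one with the start site farthest upstream was searched.

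The question of which dopamine receptors the DG expresses was addressed by TPM, which takes transcript length into account and so compares genes within a library. *Gnal* and *Ppp1r1b* had the highest levels, *Drd5* came next in each group, and *Drd3* and *Drd4* were lowest. In dorsal SH the mean levels were 19.2 TPM ± 4.19 for *Gnal*, 10.5 ± 1.77 for *Ppp1r1b*, 3.88 ± 0.797 for *Drd5*, 1.66 ± 0.342 for *Drd1*, 0.423 ± 0.181 for *Drd2* and 0.36 ± 0.0779 for *Adora2a* (SD, n = 4). The ranges of these first 4 did not overlap, whereas those of *Drd2* and *Adora2a* did. The order of these 6 and the overlap of neighbours were the same in dorsal EE. Within single libraries *Drd2* was above *Adora2a* throughout dorsal EE, but not in each dorsal SH library.

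**Figure D1:**
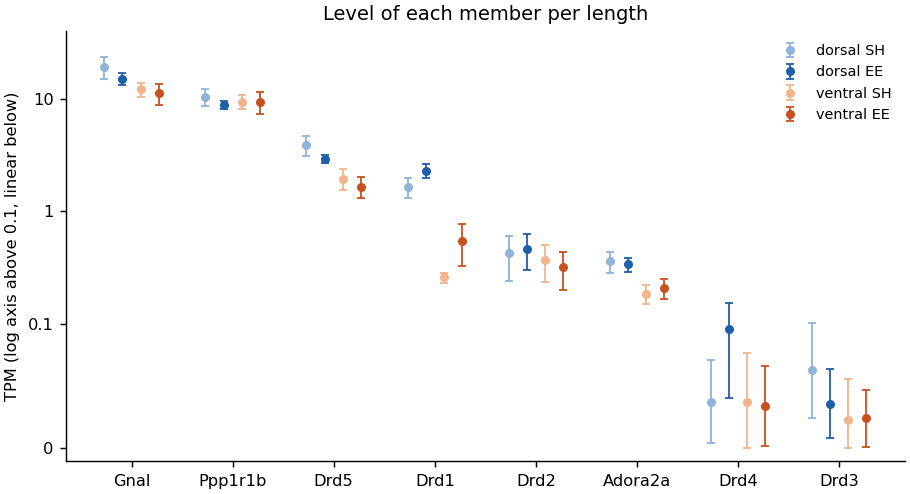
Level of the 8 genes in TPM (log axis above 0.1, linear below) by group, as mean and SD over 4 SH or 5 EE libraries. *Drd5* lay above *Drd1* in each group, and *Drd1* ranked 4 in dorsal SH (1.66 TPM) and 5 in ventral SH (0.258 TPM), behind *Drd2* (0.37 TPM).

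In ventral SH *Drd1* was at 0.258 TPM ± 0.0275 (SD, n = 4) and *Drd2* at 0.37 ± 0.134. Their ranges over libraries overlapped, but *Drd2* was the higher in each of these libraries. In ventral EE *Drd1* was at 0.548 TPM ± 0.222 (SD, n = 5) against 0.316 ± 0.117 for *Drd2*. Their ranges overlapped again, while *Drd1* was the higher in each library, by as little as 0.36 against 0.35 TPM in replicate 1. The ranges of *Gnal* and *Ppp1r1b* overlapped in both ventral groups, with *Gnal* the higher in each ventral library. A handful of small RNAs (*Rn7s2*, *Rn7s1*, *Rn7sk* and *Rny1*) took 52.6% to 67.9% of the TPM of a library. For that reason libraries were compared by CPM with TMM scaling, in which a value is not divided by transcript length. *Drd3* gave 0 to 8 fragments per library and *Drd4* 0 to 12, over 73 and 66 fragments in all 18 libraries. Neither had more than 10 fragments in at least 2 libraries, so neither was tested. *Drd4* fragments numbered 2, 2, 0 and 6 in dorsal SH, 3, 5, 8, 7 and 12 in dorsal EE, 6, 0, 3 and 1 in ventral SH and 1, 0, 2, 5 and 3 in ventral EE. Such counts do not settle whether *Drd3* or *Drd4* differs between any of the groups.

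The first comparison asked which members differ between the poles of the DG. Values in dorsal DG were set against those in ventral DG over both housings, and a gene was called with an adjusted p (FDR) under 0.05 and a change of at least 1.2-fold. *Drd1*, *Drd5*, *Adora2a* and *Gnal* were higher in dorsal DG, which is 4 of the 6 members tested and 4 of 8 in all. No member was called higher in ventral DG. Of 17040 genes tested, 15.9% were called with the dorsal level higher and 16.8% with the ventral level higher. The ranges of dorsal and ventral libraries did not overlap for *Drd1*, *Drd5* and *Gnal*, as for 18.9% of all genes.

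*Drd1*, the D1 receptor, had the largest difference between regions among the members. Its levels were 11.6, 10.3, 11.1 and 9.90 CPM in dorsal SH and 2.01, 1.95, 1.82 and 2.19 CPM in ventral SH (replicates 1, 2, 4 and 5). In EE they were 16.4, 16.2, 18.2, 19.9 and 17.7 CPM in dorsal and 3.46, 4.84, 3.92, 6.22 and 5.00 CPM in ventral DG (replicates 1 to 5). The lowest dorsal library thus lay above the highest ventral one, and the dorsal library was higher in 9 of 9 pools. *Drd1* was 4.49-fold higher in dorsal DG, with a log2 fold change of 2.17 ± 0.0859 (SE) and an adjusted p of 3.14e-15. Within SH the difference was 5.35-fold (log2 2.42 ± 0.137) and within EE 3.77-fold (1.91 ± 0.104).

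**Figure D2:**
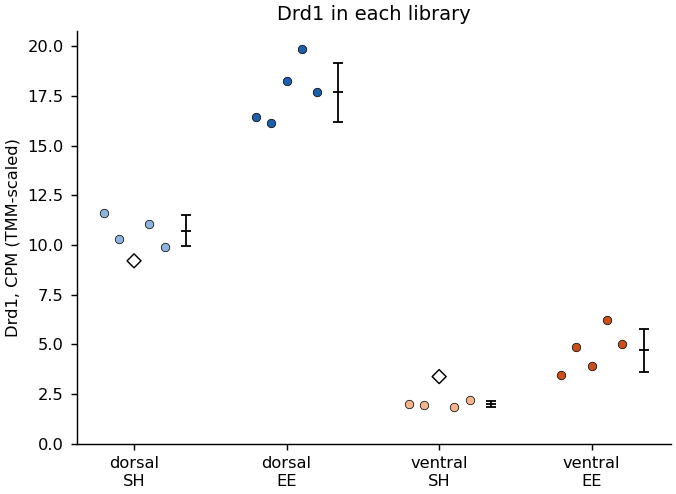
*Drd1* level in CPM for each library by group, with the mean and SD beside the points, which are ordered by replicate number. Open diamonds are SH replicate 3, which is in no mean. Of the 18 libraries that enter the means, dorsal ones lie between 9.90 and 19.9 CPM and ventral ones between 1.82 and 6.22 CPM, and in each region the EE libraries lie above the SH libraries.

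*Drd5*, the other D1-like receptor, was also higher in dorsal DG. It reached 20.9, 20.6, 22.9 and 23.1 CPM in dorsal SH, 17.9, 20.3, 21.9, 19.6 and 19.7 CPM in dorsal EE, 13.5, 12.2, 14.1 and 11.8 CPM in ventral SH and 10.9, 13.4, 13.1, 13.2 and 10.7 CPM in ventral EE. The regions did not overlap. The difference was 1.66-fold (log2 0.73 ± 0.0543 SE, adjusted p = 1.32e-10), with the dorsal library higher in 9 of 9 pools. It was 1.70-fold within SH and 1.62-fold within EE.

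*Gnal* ranged from 175 to 204 CPM in the 9 dorsal libraries and from 139 to 151 CPM in the 9 ventral ones. This 1.28-fold difference (log2 0.36 ± 0.0304 SE, adjusted p = 1.2e-09) was in the same direction in 9 of 9 pools. *Adora2a* was 1.53-fold higher in dorsal DG (log2 0.62 ± 0.108 SE, adjusted p = 4.02e-05). Its levels rest on 22 to 53 fragments per library, and were 1.36, 1.65, 2.13 and 1.45 CPM in dorsal SH, 1.84, 1.86, 2.03, 1.59 and 1.85 in dorsal EE, 0.989, 0.977, 0.891 and 1.17 in ventral SH and 1.32, 1.31, 1.41, 1.18 and 1.11 in ventral EE. Dorsal SH and ventral EE overlapped in *Adora2a*, although in each pool the dorsal library was the higher of the pair.

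*Drd2*, the D2 receptor, was not called between the regions. It was at 1.69, 0.740, 1.24 and 1.49 CPM in dorsal SH, 1.62, 1.41, 2.11, 1.10 and 2.34 CPM in dorsal EE, 1.17, 1.05, 1.38 and 1.57 CPM in ventral SH and 1.44, 0.996, 1.02, 1.22 and 1.52 CPM in ventral EE. The groups overlapped, and dorsal was the higher library in 5 of 9 pools (log2 0.24 ± 0.163 SE, adjusted p = 0.212). The summed mossy cell markers did not overlap between the regions and were higher in ventral DG, with *Drd2* not among them. Of the 5 markers, 3 were called higher in ventral DG, and *Calb2* and *Ociad2* made up most of the sum. *Nmb* was called higher in dorsal DG (3.35 against 2.31 CPM in SH). *Ppp1r1b* was 25.2 to 30.6 CPM in dorsal and 26.8 to 34.4 CPM in ventral DG. Its difference of -0.12 ± 0.0452 on the log2 scale (adjusted p = 0.0239) was below the fold limit, and dorsal was higher in 4 of 9 pools. Without SH replicate 1, SH replicate 5, EE replicate 3 or EE replicate 4 the adjusted p was 0.0617 to 0.13.

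**Figure D3:**
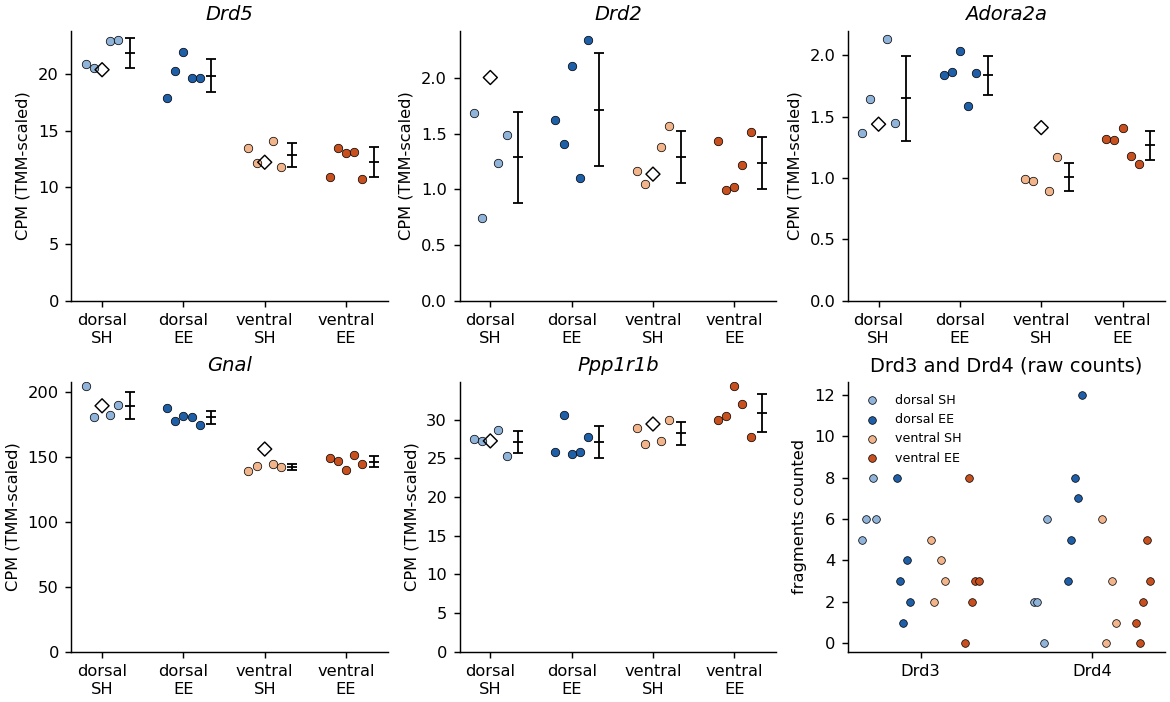
Levels of 5 members in CPM, and raw fragments of *Drd3* and *Drd4*, for each library by group, with mean and SD beside the points for CPM and open diamonds for SH replicate 3. *Drd5* and *Gnal* separate the regions without overlap (17.9 to 23.1 against 10.7 to 14.1 CPM for *Drd5*), while *Drd2* and *Ppp1r1b* overlap between all groups.

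Granule cell markers moved with region in the same direction as these calls, with 5 of 6 markers called higher in dorsal DG and none higher in ventral. Each tested member was therefore also divided by the summed granule cell markers of its library, a step chosen after the values were seen. Per 1000 CPM of markers, *Drd1* was 9.67 to 11.8 in dorsal SH against 2.87 to 3.96 in ventral SH, and 18.6 to 20.4 in dorsal EE against 7.17 to 10.1 in ventral EE. *Drd1* thus still separated the regions within each housing. *Drd5* did not, at 20 to 24.4 in dorsal and 19.5 to 30.4 in ventral DG. *Adora2a* overlapped as well (1.30 to 2.27 and 1.41 to 3.29). For *Gnal* the order turned, with 185 to 213 in dorsal and 227 to 327 in ventral DG. *Ppp1r1b*, not called by CPM, also lay higher in ventral DG on this scale, at 24.7 to 35.4 in dorsal and 42.9 to 80.1 in ventral libraries. *Drd2* overlapped, at 0.787 to 2.50 and 1.90 to 2.98. Division by *Prox1* alone gave mean dorsal to ventral ratios of 2.16 for *Drd1*, 0.855 for *Drd5*, 0.783 for *Adora2a*, 0.661 for *Gnal*, 0.631 for *Drd2* and 0.472 for *Ppp1r1b*. Markers of striatal medium spiny neurons, the cells best known for these genes, summed to 100.4 to 112 CPM in dorsal and 84.5 to 94.5 CPM in ventral DG over 7 genes. Of the 6 tested, 2 were called with dorsal higher and 2 with ventral higher, the latter being *Tac1* (4.33 CPM in dorsal and 5.73 in ventral SH) and *Rarb* (5.99 and 8.18 CPM). Most of the sum was *Pde10a* (86.1 CPM in dorsal SH), while the more restricted *Gpr6*, *Ido1* and *Slc35d3* had group means of 0.185 to 0.631 CPM. The part of the thalamus and habenula markers, 4 of 6 of which were called higher in dorsal DG, was not tested.

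The second comparison was between housings. *Drd1* was higher in EE than in SH in both regions. In dorsal DG it was 10.7 CPM ± 0.77 in SH (SD, n = 4) and 17.7 ± 1.5 in EE (n = 5), which is 1.65-fold, or 0.72 ± 0.1 (SE) on the log2 scale. In ventral DG it was 2.00 CPM ± 0.153 in SH and 4.69 ± 1.07 in EE, which is 2.34-fold, or 1.23 ± 0.146 on the log2 scale. The SH and EE libraries did not overlap in either region. These are the values by which the gene was chosen, so no test is given.

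SH replicate 3, which took no part in that choice, differed between its regions. On a scale set over all 20 libraries its *Drd1* was 9.20 CPM in dorsal DG, below the other SH libraries. Its ventral library was at 3.37 CPM, above the other ventral SH libraries and below the lowest ventral EE library (3.45 CPM on that scale). With it, the log2 difference was 0.76 in dorsal and 1.05 in ventral DG. The same pool was at 20.4 and 12.2 CPM for *Drd5*, within or just below the range of the other SH libraries, and at 2.01 and 1.14 CPM for *Drd2*.

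No other member was called between housings. In dorsal DG, 0 of the other 5 tested members passed by edgeR or by DESeq2, and 0 had an unadjusted p under 0.05. Among all genes 0.387% were called raised and 0.246% lowered by EE there, and 3.99% did not overlap between SH and EE, as *Drd1* alone of the members did. In ventral DG the counts were 0 of 5 by both tools and 0 at an unadjusted p under 0.05, beside 0.182% of all genes raised and 0.0587% lowered, and 2.45% without overlap. *Drd5*, which was chosen with *Drd1* but not for its own response, had log2 differences of -0.14 ± 0.0736 (adjusted p = 0.637) in dorsal and -0.07 ± 0.08 (adjusted p = 0.871) in ventral DG. *Drd2* was at 0.41 ± 0.225 in dorsal (adjusted p = 0.652) and -0.05 ± 0.236 in ventral DG (adjusted p = 0.976). *Adora2a* was at 0.17 ± 0.142 and 0.33 ± 0.162, with adjusted p of 0.811 and 0.697. *Gnal* was at -0.07 ± 0.0428 and 0.04 ± 0.0431, and *Ppp1r1b* at -0.0018 ± 0.0643 and 0.13 ± 0.0636. Their SEs were 0.0428 to 0.0643, whereas *Drd2*, at 18 to 67 fragments per library, had SEs of 0.225 and 0.236.

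**Figure D4:**
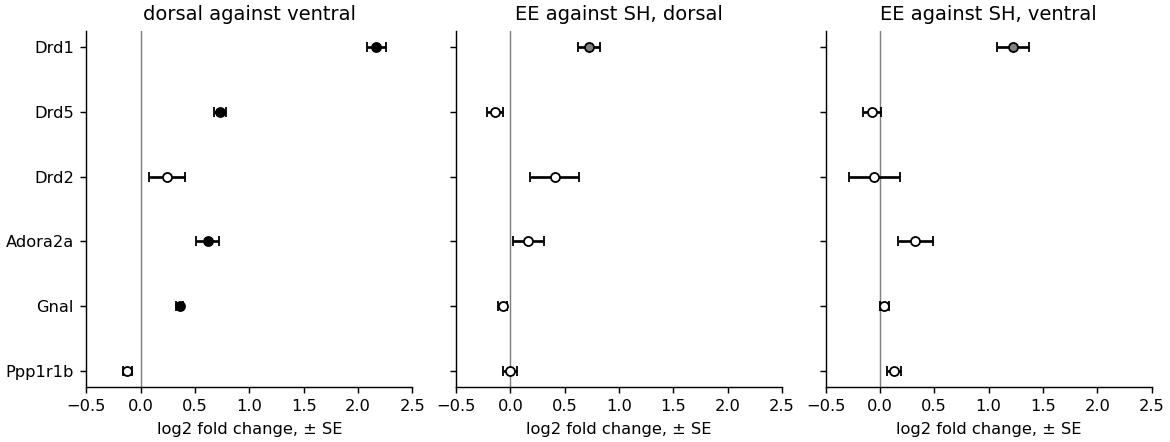
Log2 fold change with SE of the 6 tested members for dorsal against ventral DG and for EE against SH in each region. Filled points were called and open ones were not. Grey marks *Drd1* for EE, whose values chose the list and for which no test is given. For EE it stands at 0.72 and 1.23 while the other members lie between -0.14 and 0.41.

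The levels of cell type markers were set beside these values. The granule cell sum was 940 to 1047 CPM in dorsal SH and 863 to 975 CPM in dorsal EE, and 553 to 635 CPM in ventral SH and 429 to 638 CPM in ventral EE. By edgeR none of its 6 markers was called by EE in either region, with 3 in dorsal (*Tdo2*, *Calb1* and *Dsp*) and 2 in ventral DG (*Tdo2* and *Dsp*) at an unadjusted p under 0.05. DESeq2 called 0 in dorsal and 1 in ventral DG (*Tdo2*). Per 1000 CPM of these markers the SH and EE values of *Drd1* given above also did not overlap in either region. That ratio uses the values that chose the list and was chosen after they were seen, so nothing is read from it. The highest marker sums in EE were lower than or close to those in SH, so division could hardly have closed the gap. Of the 5 mossy cell markers, *Nmb* was called raised in dorsal EE, with means of 3.35 CPM in SH and 4.79 CPM in EE. Of the 7 interneuron markers, *Npy* was called raised by EE in both regions, from 30.7 to 46.6 CPM in dorsal and from 27.2 to 35.8 CPM in ventral DG. Their part was not tested.

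Whether EE acted differently on *Drd1* at the poles depended on the scale. The rise was larger in dorsal DG in absolute level, by 6.96 CPM against 2.69 CPM in ventral DG, and larger in ventral DG as a fold. On the log2 scale the dorsal response minus the ventral one was -0.51 ± 0.179 (SE), and -0.29 with all 20 libraries. It compares the values that chose the list, so no test is given. Of the other 5 members, 0 passed a test of this difference by edgeR or by DESeq2, and 0 had an unadjusted p under 0.05. A single gene of 17040 passed (0.00587%). The interaction was 0.46 ± 0.327 for *Drd2*, -0.06 ± 0.109 for *Drd5*, -0.16 ± 0.216 for *Adora2a*, -0.11 ± 0.0608 for *Gnal* and -0.13 ± 0.0905 for *Ppp1r1b*.

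Genes with a pattern most like that of *Drd1* were sought among 12167 genes with TPM above 1 in at least 3 libraries, by Pearson correlation of log2 CPM over the 18 libraries. They were *Fst* (r = 0.982), *Sh2d5* (0.971), *Iglon5* (0.971), *Nptx2* (0.967) and *Mylk3* (0.967). *Fst* encodes the activin-binding protein follistatin, and *Nptx2* encodes a neuronal pentraxin of excitatory synapses. The regions form separate clusters, so r was also taken within the 9 dorsal and the 9 ventral libraries, which share pools. It was 0.912 and 0.898 for *Fst*, 0.945 and 0.885 for *Sh2d5*, 0.837 and 0.874 for *Iglon5*, 0.877 and 0.928 for *Nptx2* and 0.975 and 0.762 for *Mylk3*. Within each region the SH and EE libraries of *Drd1* still lay apart, so r there also follows the housing difference by which *Drd1* was chosen. These genes were picked for the highest r, and the values are a description. *Fst* had means of 6.51 CPM in dorsal SH, 9.61 in dorsal EE, 1.63 in ventral SH and 3.05 in ventral EE, the same order of groups as *Drd1*. *Nptx2* had 18.6, 28.9, 7.24 and 13.4 CPM.

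The wider pathway was followed in a list of 86 genes that make, clear or transmit the dopamine signal, of which 84 were tested. *Pde2a* was not matched to an identifier, and *Slc6a2* had at most 2 fragments. Between regions, 31 of the 84 were called in either direction, or 36.9%, next to 5573 of all 17040 genes. By direction, 17 of the 84 had their higher level in dorsal and 14 in ventral DG, next to 15.9% and 16.8% of all genes. The 36.9% covers both directions and is to be set against the 2 shares of all genes together. The median log2 difference was 0.0049 in the list and -0.0046 over all genes.

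The hippocampus receives dopamine from fibers whose cell bodies lie in the midbrain and brainstem. Of 8 tested genes of dopamine synthesis, transport and breakdown, 5 were called, 2 of them in favor of dorsal and 3 in favor of ventral DG. These counts and those of the whole list include *Th*, whose call is limited as given below. *Th*, *Slc6a3* and, in ventral DG, *Dbh* rested on few fragments. *Dbh*, which turns dopamine into noradrenaline, was 4.23-fold higher in dorsal DG (6 to 65 fragments per library, log2 2.08 ± 0.15). *Slc18a2*, the vesicular monoamine transporter, was 1.83-fold higher in dorsal DG with group means of 2.14 to 4.44 CPM. *Th*, the rate-limiting enzyme of dopamine synthesis, and *Slc6a3*, the dopamine transporter, were called higher in ventral DG (log2 -2.24 ± 0.738 and -1.40 ± 0.434). Both were marked by 1 library: ventral SH replicate 2 held 42 of the *Th* fragments against 0 to 11 in the others, and 144 of *Slc6a3* against 8 to 54. Without the pool SH replicate 2 the *Slc6a3* difference was -0.80 ± 0.329 (adjusted p = 0.0464). *Th* passed the count limit only through ventral SH replicate 2 and ventral EE replicate 4 (42 and 11 fragments), so nothing is read from its call. Without either pool, with filterByExpr or with expected counts it was not tested.

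Adenylyl cyclases, which make cyclic AMP, differed by isoform. Of 9, 3 were higher in the dorsal pole and 2 in the ventral. *Adcy1*, a calcium-stimulated isoform, was 2.60-fold higher in dorsal DG (3331 CPM ± 188 in dorsal SH and 1246 ± 62.4 in ventral SH). *Adcy5*, the main striatal isoform, was 1.47-fold higher in ventral DG (103 ± 6.44 and 148 ± 17.4 CPM in SH). Phosphodiesterases, which break cyclic nucleotides down, had 4 of 7 called with dorsal higher and 1 with ventral higher. *Pde1b* was 1.45-fold higher in dorsal DG, and *Pde1a* was 3.13-fold higher in ventral DG (76.8 ± 5.97 against 229 ± 15 CPM in SH). These 2 encode calmodulin-dependent phosphodiesterases.

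**Figure D5:**
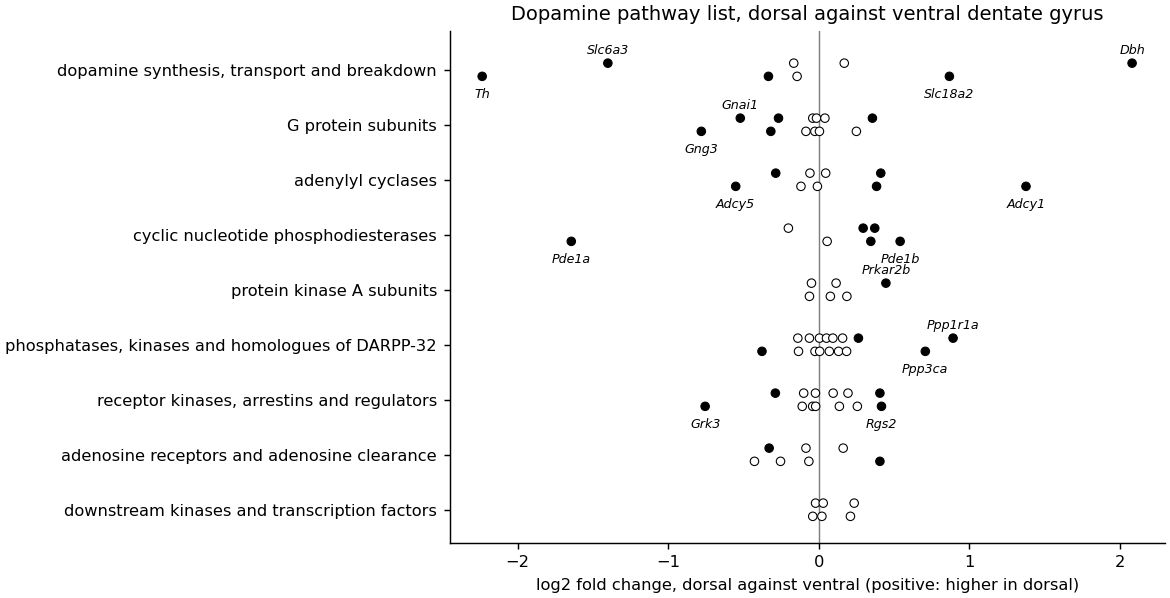
Log2 fold change of each tested pathway gene for dorsal against ventral DG, by functional group; filled points were called, and the 15 called genes with the largest differences are named. Called genes lie on both sides in 7 of the 9 groups, as with *Adcy1* (1.38) and *Adcy5* (-0.55).

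G protein subunits had 1 of 12 called with dorsal higher and 4 with ventral higher, led by *Gng3* (1.72-fold) and *Gnai1* (1.44-fold), an inhibitory alpha subunit. *Gnas*, the stimulatory subunit more widely used than Golf, was also higher in ventral DG (log2 -0.32 ± 0.0328), against 0.36 in favor of dorsal for *Gnal*. Among relatives of DARPP-32 and the enzymes that act on it, 3 of 16 favored dorsal and 1 ventral DG. *Ppp1r1a*, which encodes protein phosphatase inhibitor-1, was 1.86-fold higher in dorsal DG (122 ± 9.17 against 66.1 ± 8.09 CPM in SH), and *Ppp3ca*, a catalytic subunit of calcineurin, was 1.63-fold higher. *Prkar2b* was the 1 protein kinase A subunit of 6 called (1.36-fold higher in dorsal). Of the 13 receptor kinases, arrestins and regulators, 2 favored dorsal and 2 ventral DG, with *Grk3* 1.69-fold higher in ventral and *Rgs2* 1.34-fold higher in dorsal DG. Of 7 genes of adenosine reception and clearance, *Nt5e* was higher in dorsal and *Adora2b* higher in ventral DG. The 6 downstream kinases and transcription factors gave 0 calls by edgeR or DESeq2, with 2 (*Creb1* and *Gsk3b*, named after their values were seen) at an unadjusted p under 0.05.

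With enrichment, 1 of the 84 pathway genes was called in each region, or 1.19%, next to 0.387% of all genes raised in dorsal and 0.182% in ventral DG, and it was *Rgs4* both times. *Rgs4*, a regulator that speeds the shutdown of Gi and Gq signals, was at 117, 117, 122.5 and 122 CPM in dorsal SH and at 155, 155, 165, 181 and 171 CPM in dorsal EE. In ventral DG it was at 121, 134, 134 and 134 CPM in SH and 153, 144, 154, 176 and 172 CPM in EE. SH and EE did not overlap in either region. The rise was 1.38-fold in dorsal DG (log2 0.47 ± 0.0596 SE, adjusted p = 0.000202) and 1.23-fold in ventral DG (0.29 ± 0.0593, adjusted p = 0.0305). In dorsal DG the call held without each pool in turn. In ventral DG it was lost without 7 of 9 pools (each SH pool and EE replicates 3, 4 and 5), with log2 differences of 0.26 to 0.31 and an adjusted p of 0.055 to 0.172. The EE effects on *Rgs4* did not pass as different between regions (0.17 ± 0.0836, adjusted p = 0.9999). No pathway gene passed that test by edgeR or by DESeq2, and 1 of 84 (*Dbh*) had an unadjusted p under 0.05.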

How the data were processed

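RNA-seq of 20 libraries in 4 groups was used, and the methylation libraries of the series were not analysed here. Total RNA libraries were prepared with a strand-specific kit. Per the labels, the authors' processing used Trim Galore 0.4.0, STAR 2.5.1b and RSEM 1.2.30 with mm10. The authors deposited a count of fragments per gene, without normalization, for each strand setting. A separate deposited table gives the expected count, in which fragments shared by genes or isoforms are divided. That deposited table also holds TPM and FPKM, both scaled for transcript length and library depth. Gencode names (M21) matched 45968 of 46480 genes. SH replicate 3 was left out because the study excluded an SH sample for *Xist*, and this pool alone had high *Xist*, in both regions.

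Stranded counts were tested with edgeR 4.0.16 (TMM, quasi-likelihood, 4 groups in 1 model, R 4.3.3). A gene needed over 10 counts in 2 or more of the 18 samples, and p was adjusted over 17040 genes by Benjamini-Hochberg. Calls needed FDR under 0.05 and a 1.2-fold change. Expected counts were rounded to whole numbers where used. Groups without overlap were found by CPM. The member and gene lists were chosen with earlier results of these data known. Named genes are all members, up to 15 called pathway genes per comparison with the largest change, the 5 genes most like *Drd1*, and markers beside a member. *Gnas*, *Nt5e*, *Adora2b*, *Creb1* and *Gsk3b* were named outside this rule after their values were seen. A striatal marker of the fixed lists is not reported here and is in no sum. Dorsal and ventral libraries of a pool come from the same mice, as the study states, and their deviations from group means correlated at -0.084 to 0.189 over 9 pools. Alternatives were DESeq2 1.42.0, the likelihood ratio test, RLE size factors, other count filters, expected counts, all 20 samples, a replicate block, regions fitted apart, a joint test of region in both housings, no fold limit, FPKM for levels, and leaving out each pool. The code was tested on simulated data. Depth was 22919364 to 28301861 fragments per library, and p-values measure the spread between pools.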

Additional observations from a re-analysis of the deposited data

How the results depend on the processing

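The 4 members called between regions (*Drd1*, *Drd5*, *Adora2a* and *Gnal*) were the same 4 under each alternative run, with *Ppp1r1b* added as number 5 once the fold limit was dropped. The adjusted p of *Ppp1r1b* was 0.00471 to 0.13 with a pool left out, and over 0.05 in 4 of 9 such fits. The count of other members called by EE was 0 in dorsal and 0 in ventral DG under each alternative, as was that of other members with different EE effects. The order of the members by FPKM was that by TPM at 8 of 8 ranks in dorsal SH. The log2 difference of *Drd1* between EE and SH was 0.68 to 0.77 in dorsal and 1.1 to 1.32 in ventral DG when each pool was left out. Pathway genes called between regions were 51 with no fold limit, and 31 with the replicate block as without it. The replicate block changed no other call. Between SH and EE the replicate numbers do not mark shared mice, since each mouse lived in 1 housing. Deviations of SH and EE libraries with the same number correlated at 0.0815 to 0.175. Dorsal and ventral libraries of the same mice correlated at -0.084 to 0.189, so such values cannot show whether a number marks a shared batch. With that block *Drd1* differed by 0.73 and 1.23. In ventral EE the pathway count was 0 to 1 with a pool left out, and 0 with the regions fitted apart; the latter has fewer samples per fit.

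Near 0, some differences turned sign without any call. *Ppp1r1b* in dorsal EE was 4.23e-05 without a count filter, 0.000891 with filterByExpr, 0.0142 with expected counts and -0.0461 to 0.0283 with a pool left out. *Drd2* in ventral EE ranged from -0.138 to 0.0587 with a pool left out, and the difference of EE effects from -0.104 to 0.00738 for *Drd5* and from -0.291 to 0.0377 for *Adora2a*. The cause was not tested. The other 376 values for single members kept their sign and their call, which needs FDR and fold together. Depth limits *Drd3* and *Drd4*, which were too low to test, and *Drd2* and *Adora2a*, which rest on 18 to 67 and 22 to 53 fragments per library.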
